A study of Mus musculus with 20 samples.

Results

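The 9 genes described here encode receptors, adhesion proteins and transcription factors of endothelial cells, the cells that line blood vessels. They were chosen by name, with earlier results of these data known. All 9 were found among the 53440 gene symbols of the RNA table and the 20462 rows of each ChIP table. Kdr and Flt1 encode receptors of vascular endothelial growth factor (VEGF), Tek and Tie1 the angiopoietin receptor and its partner receptor, and Cdh5, Pecam1 and Emcn surface proteins of endothelial cells. Etv2 and Sox18 encode transcription factors of the endothelial lineage.

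The samples were TL1 mouse cells, kept as embryonic stem (ES) cells in serum medium with the self-renewal cytokine LIF, or grown without LIF as embryoid bodies (EB), aggregates in which the cells differentiate. Wild type cells were compared with cells, labelled knockout, in which CRISPR/Cas9 had been used to deplete p150. This protein is the largest subunit of CAF-1, a complex that places histones on newly copied DNA. For RNA-seq each of the 4 groups had 2 libraries, and for ChIP-seq of the histone marks H3K27me3 and H3K4me3 each group had 1 library per mark. The labels give neither the age of the embryoid bodies used for RNA nor whether the knockout cells were 1 clone, and they do not say whether both libraries of a group were separate cultures. The titles of the EB ChIP samples hold a digit directly before EB that the RNA titles lack, and its meaning is not stated. The embryoid bodies used for RNA and for ChIP could thus differ in age. The p-values rest on the spread between libraries of the same group, and that spread could be technical only.

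In the early embryo and in embryoid bodies, endothelial cells arise from mesoderm. Etv2 acts early and briefly in this step, Kdr marks the mesodermal precursors and stays on in endothelium, and Cdh5, Tie1, Tek and Emcn mark cells that have joined the lineage. Pecam1 is also made by ES cells, and Flt1 by trophoblast, so neither gene alone marks endothelium in such cultures. H3K27me3 is the mark of Polycomb repression and H3K4me3 that of active promoters, which in mammals are often rich in CpG dinucleotides.

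The promoters of these genes differ widely in CpG content, and some are shown here. A RefSeq promoter window (GRCm38.p6, 300 bases with 50 after the start) was found for 6 of the 9 genes. These starts can differ from the ends of the loci given below with the RNA. The Tie1 locus there reaches to 118490061, so most of the upstream bases shown for Tie1 lie within it. Flt1 holds 29 CpG in its window and Kdr 19, against 7 in Tie1, 5 in Etv2, 3 in Tek and 2 in Emcn, and the median over all 32851 windows is 7. The 250 bases upstream of the start, 5′ to 3′ on the strand of the gene with CpG in capitals, lie for Flt1 at chr5:147726012-147726261 (minus strand), for Kdr at chr5:75978456-75978705 (minus), for Tie1 at chr4:118489850-118490099 (minus) and for Emcn at chr3:137340828-137341077 (plus).
Flt1: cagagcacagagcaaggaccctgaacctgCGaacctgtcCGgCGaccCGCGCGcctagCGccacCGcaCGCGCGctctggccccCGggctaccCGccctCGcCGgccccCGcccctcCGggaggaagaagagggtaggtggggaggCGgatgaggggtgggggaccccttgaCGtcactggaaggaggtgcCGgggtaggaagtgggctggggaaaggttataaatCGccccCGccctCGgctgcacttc
Kdr: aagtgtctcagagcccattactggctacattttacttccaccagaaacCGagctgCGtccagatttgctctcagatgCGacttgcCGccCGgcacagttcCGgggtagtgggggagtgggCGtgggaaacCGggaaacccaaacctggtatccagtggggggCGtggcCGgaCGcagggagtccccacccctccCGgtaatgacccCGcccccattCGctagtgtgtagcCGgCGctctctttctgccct
Tie1: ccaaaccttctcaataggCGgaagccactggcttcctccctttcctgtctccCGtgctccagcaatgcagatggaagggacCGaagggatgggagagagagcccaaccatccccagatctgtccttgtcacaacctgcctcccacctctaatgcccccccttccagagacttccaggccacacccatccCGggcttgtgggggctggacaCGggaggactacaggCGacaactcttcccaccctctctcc
Emcn: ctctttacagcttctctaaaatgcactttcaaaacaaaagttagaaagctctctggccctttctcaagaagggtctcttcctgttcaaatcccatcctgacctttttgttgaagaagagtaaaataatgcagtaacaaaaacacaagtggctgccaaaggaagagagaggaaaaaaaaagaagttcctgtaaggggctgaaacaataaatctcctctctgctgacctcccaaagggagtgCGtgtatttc
As many CpG or fewer are found in 88.3% of all windows for Flt1, 73.5% for Kdr, 51.4% for Tie1 and 23.3% for Emcn, so that Tie1 lies at the median and Emcn below it. Among the 6 windows, letters of the ETS factor core (CCGGAA or CAGGAA, both strands) were found in 5, all but Flt1, against 41.4% of all windows. Letters of the GATA factor core (AGATAA, both strands) were found in 1, Tek, against 11.2%. Letters of SOX factor motifs (ACAAAG or ACAATG or ACAATA, both strands) were found in 2, Tek and Emcn, against 34.1%. Some of these motifs can overlap each other, and a match is a string of letters and not a measured site.

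The RNA table gives FPKM, fragments per kilobase of transcript scaled to the mapped fragments of the library, so levels can be set side by side between genes. FPKM totals ran from 641692 to 781913 per library, and the table holds no read counts, so the depth is not known. Chaf1a, which encodes p150, stood at 31.6 to 49.5 FPKM in all 8 libraries, a gene-level value that does not check a CRISPR lesion. The summed FPKM of 6 pluripotency genes was 2496 to 2874 over the ES libraries. It was 138 and 196 in EB of wild type cells, against 1593 and 1297 in those of knockout cells. All 9 genes passed the filter of at least 1 FPKM in at least 2 libraries, but Emcn reached 1 FPKM in only 1 library outside wild type EB and so passed through the group in which it was high. Cdh5, Flt1 and Tie1 reached 1 FPKM only in EB libraries, and Kdr did so in ES only in knockout library 1 (2.13 FPKM). With Emcn, these genes passed the filter only through EB. Their lower level in ES was thus in part set by the filter, in both genotypes.

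In wild type cells all 9 endothelial genes were higher in EB than in ES, in part set by the filter for those that passed it only through EB. Cdh5, the cadherin of endothelial junctions (ENSMUSG00000031871.9, mm10 chromosome 8, 104101625 to 104144511), went from 0.0488 and 0.0130 FPKM in ES to 43.0 and 26.0 in EB. Its log2 difference, on FPKM + 1 as for every difference given here, was 5.06 ± 0.44 (SE, limma adjusted p = 0.000101). Kdr, the main signalling receptor for VEGF (ENSMUSG00000062960.10, chromosome 5, 75932827 to 75978458), went from 0.507 and 0.314 to 41.0 and 27.9 FPKM. Tie1 (ENSMUSG00000033191.14, chromosome 4, 118471191 to 118490061) went from 0.236 and 0.265 to 38.0 and 23.3 FPKM. Sox18 (ENSMUSG00000046470.5, chromosome 2, 181669836 to 181671640) went from 0.701 and 0.567 to 38.7 and 25.3 FPKM. These 4 genes were below 1 FPKM in both wild type ES libraries and above 20 FPKM in both EB libraries.

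Emcn, the endothelial sialomucin endomucin (ENSMUSG00000054690.17, chromosome 3, 137341067 to 137432185), was listed at 0 and 0.0446 FPKM in wild type ES cells, and the EB libraries had 17.1 and 12.1. Flt1, the VEGF receptor with a weak kinase that also acts as a VEGF trap (ENSMUSG00000029648.13, chromosome 5, 147561604 to 147726011), went from 0.407 and 0.161 to 17.0 and 13.3 FPKM. Tek, also called Tie2 (ENSMUSG00000006386.15, chromosome 4, 94739289 to 94874976), already had 1.47 and 1.34 FPKM in ES and reached 22.4 and 12.2. The log2 rises of Kdr, Tie1, Sox18, Emcn, Flt1 and Tek were 4.63, 4.62, 4.31, 3.91, 3.65 and 2.87, each with a limma adjusted p of 0.00136 or less.

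Pecam1 and Etv2 rose least. Pecam1, an adhesion protein of endothelium, platelets and ES cells (ENSMUSG00000020717.19, chromosome 11, 106654217 to 106750628), stood at 17.8 and 20.1 FPKM in ES cells of wild type, while their EB had 35.6 and 25.2. Its log2 difference of 0.64 ± 0.18 (SE) passed the threshold (limma adjusted p = 0.0178), but not without EB wild type library 1 (adjusted p = 0.0959), without ES wild type library 1 (0.0891) or after quantile normalization (0.0692). Etv2 (ENSMUSG00000006311.8, chromosome 7, 30633616 to 30635852) went from 1.32 and 1.00 to 3.03 and 3.16 FPKM, a log2 difference of 0.93 ± 0.21 (limma adjusted p = 0.00717; 0.102 after quantile normalization). Among all 15428 genes tested, 36.1% were called higher in this contrast, with a median of 0.12, against a median of 3.91 over the 9 genes. After quantile normalization that median over all genes was -0.11.

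By level in wild type EB, Cdh5 (34.5 ± 12.0 FPKM, SD, n = 2), Kdr (34.5 ± 9.21), Sox18 (32.0 ± 9.50), Tie1 (30.6 ± 10.4) and Pecam1 (30.4 ± 7.34) came first. The libraries of these 5 genes overlapped each other. Tek (17.3 ± 7.20), Flt1 (15.2 ± 2.60) and Emcn (14.6 ± 3.55) followed, also overlapping, and Etv2 (3.10 ± 0.0915) was lowest. In wild type ES the order was different, with Pecam1 first at 18.9 ± 1.62 FPKM, then Tek at 1.41 ± 0.0960 and Etv2 at 1.16 ± 0.224, whose libraries came close (1.34 and 1.32 at the nearest) without overlapping. The other 6 genes stood at 0.0223 to 0.634 FPKM on average there. In knockout EB, Pecam1 came first at 31.9 ± 0.791 FPKM, with no overlap with the rest. Flt1 (11.8 ± 5.26), Cdh5 (9.40 ± 6.47), Kdr (9.25 ± 5.75), Sox18 (6.32 ± 4.47), Tie1 (5.10 ± 3.85) and Tek (4.99 ± 2.01) followed, each overlapping its neighbour in this order, and Etv2 (3.12 ± 0.791) and Emcn (2.67 ± 3.35) were last, both overlapping Tek.

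**Figure D1:**
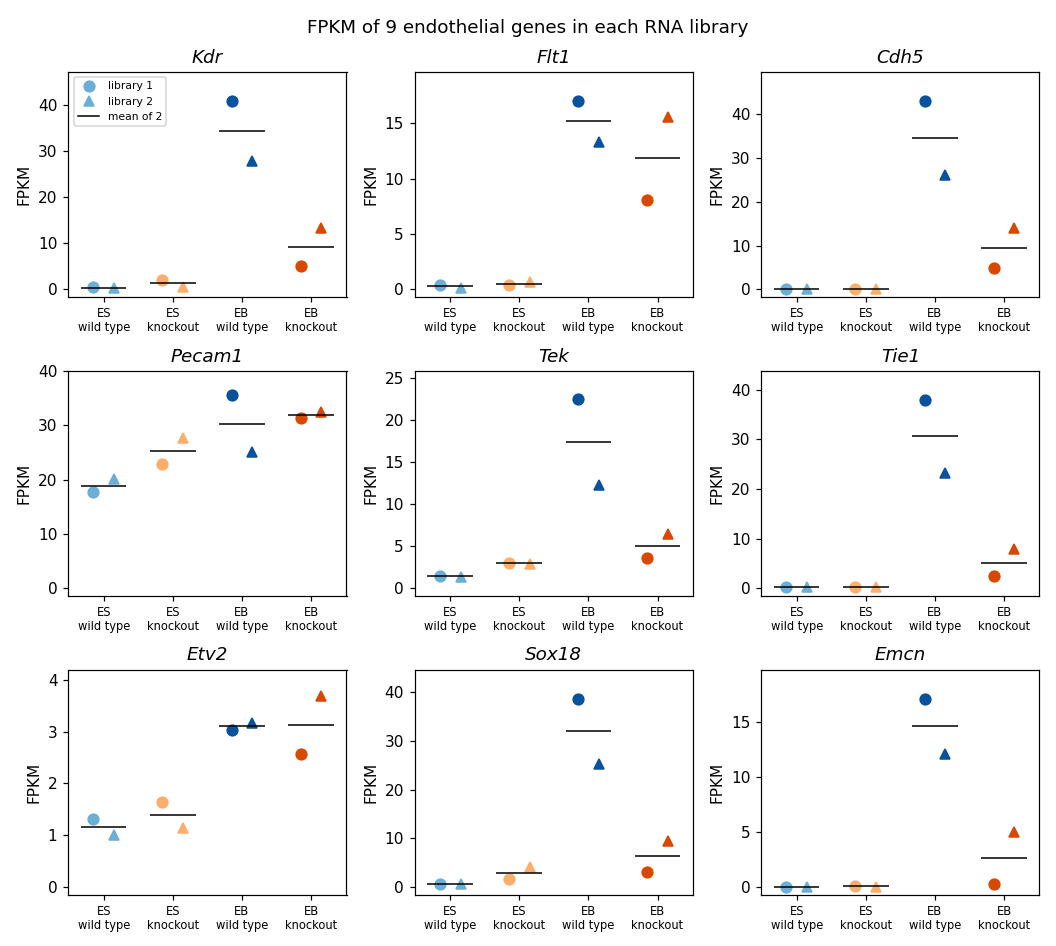
FPKM of each of the 9 genes (y axis, linear, scaled per gene) in the ES and EB libraries of both genotypes (x axis); circles are library 1, triangles library 2, and lines the mean of both. In 6 panels both knockout EB libraries lie below both wild type EB libraries, while Flt1, Pecam1 and Etv2 overlap.

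In knockout EB, 6 of the 9 genes fell against wild type EB (limma), and the other 3, Flt1, Pecam1 and Etv2, were not called; 0 rose, where 20.0% of all genes were called higher. Background rates were 25.9% of all tested genes called lower and 42.2% with both knockout EB libraries below both wild type EB libraries. The median log2 difference was -1.88 over the 9 genes and -0.06 over all genes tested. Emcn, among the 6, passed the filter only through wild type EB, so its fall was in part set by the filter. In bulk RNA, fewer cells of a type and less RNA per cell cannot be told apart.

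Among the junction and surface proteins, Cdh5 stood at 4.82 and 14.0 FPKM in knockout EB, below the 43.0 and 26.0 of wild type EB. On the log2 scale it differed by -1.88 ± 0.44 (SE, limma adjusted p = 0.0118). Emcn had 0.299 and 5.04 FPKM, against 17.1 and 12.1, a log2 difference of -2.46 ± 0.62 (limma adjusted p = 0.0166). The 2 knockout libraries of Emcn were far apart, by 16.8-fold, yet both lay below wild type. Its difference was -3.56 without EB knockout library 2 and -1.35 without EB knockout library 1. Pecam1 stood at 31.4 and 32.5 FPKM in knockout EB, between the wild type values of 35.6 and 25.2. Its log2 difference was 0.09, with a 95% interval from -0.33 to 0.51 (limma adjusted p = 0.712), and its sign turned when libraries were scaled to a common total (-0.11).

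Among the receptor kinases, Tie1 fell most, to 2.38 and 7.83 FPKM from 38.0 and 23.3, a log2 difference of -2.49 ± 0.44 (SE, limma adjusted p = 0.00425). Tek fell to 3.57 and 6.41 FPKM from 22.4 and 12.2, by -1.60 ± 0.32 (limma adjusted p = 0.00697). Kdr fell to 5.18 and 13.3 FPKM from 41.0 and 27.9, by -1.89 ± 0.47 (limma adjusted p = 0.0154). Both knockout libraries of these 3 receptors lay below both wild type libraries. Flt1 had 8.10 and 15.5 FPKM in knockout EB against 17.0 and 13.3, so its groups overlapped. Its log2 difference was -0.39, with a 95% interval from -1.11 to 0.33 (limma adjusted p = 0.334). Without EB knockout library 2 it was -0.82 (adjusted p = 0.0480), and without EB knockout library 1 it was 0.04.

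Of the transcription factors, Sox18 fell to 3.16 and 9.48 FPKM from 38.7 and 25.3, a log2 difference of -2.29 ± 0.49 (SE, limma adjusted p = 0.00866). Etv2 had 2.56 and 3.68 FPKM in knockout EB and 3.03 and 3.16 in wild type EB. Its log2 difference was -0.01, with a 95% interval from -0.50 to 0.49 (limma adjusted p = 0.990), and it was 0.20 after quantile normalization. In mean FPKM, knockout EB reached 16.7% of wild type for Tie1, 18.3% for Emcn, 19.7% for Sox18, 26.8% for Kdr, 27.3% for Cdh5, 28.8% for Tek, 78.0% for Flt1, 101% for Etv2 and 105% for Pecam1.

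With 2 libraries per group, the calls for Tek and Tie1 held whichever library was left out. Over these fits the log2 difference ran from -2.01 to -1.18 for Tek, -3.19 to -1.80 for Tie1, -2.50 to -1.28 for Kdr, -2.56 to -1.20 for Cdh5 and -2.96 to -1.63 for Sox18. Without EB wild type library 1 only these 2 were called, and the adjusted p (limma) was 0.0765 for Cdh5, 0.0595 for Sox18, 0.0927 for Kdr and 0.0902 for Emcn; Kdr also lost its call without EB knockout library 1 (0.0858) and Emcn without EB wild type library 2 (0.0575). With no filter the adjusted p was 0.0583 for Kdr and 0.0661 for Emcn, and with only both EB groups in the fit 0.0523 for Cdh5 and 0.0698 for Emcn. The median over all genes was -0.24 with libraries scaled to a common total and 0.03 after quantile normalization. Under either, 6 of the 9 were called lower. Of all 15428 genes tested, 5232 were called lower at the common total and 3500 after quantile normalization, against 3992 in the main fit.

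**Figure D2:**
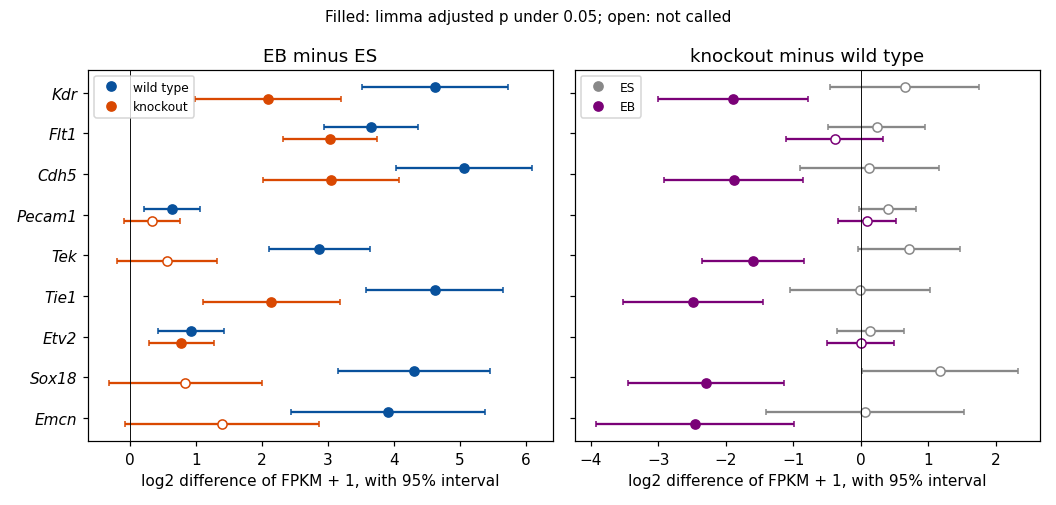
log2 differences of FPKM + 1 with 95% intervals from limma (x axis) for the 9 genes (y axis): EB minus ES in each genotype on the left, knockout minus wild type at each stage on the right. Filled points passed an adjusted p of 0.05; on the right all 6 filled points are EB values, from -2.49 to -1.60.

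The rise from ES to EB in knockout cells was called for Cdh5 (log2 3.05), Flt1 (3.03), Tie1 (2.14), Kdr (2.09) and Etv2 (0.78), 5 of 9 genes, where 17.1% of all genes were called higher. Tek went from 2.97 and 2.92 to 3.57 and 6.41 FPKM, a log2 difference of 0.56 (limma adjusted p = 0.228). Sox18 had 1.63 and 4.19 FPKM in knockout ES and 3.16 and 9.48 in knockout EB, with overlapping libraries and a log2 difference of 0.84 (adjusted p = 0.236). The values were 0.33 (adjusted p = 0.202) for Pecam1 and 1.39 (adjusted p = 0.135) for Emcn, which was called without EB knockout library 1 (2.50, adjusted p = 0.00407). Flt1 and Cdh5 were called whichever library was left out. Kdr was not called without EB knockout library 2 (adjusted p = 0.0786) or ES knockout library 2 (0.0770), nor Tie1 without ES knockout library 1 (0.0542) or 2 (0.0562). Etv2 was called only without ES wild type library 1 or EB knockout library 1 of the 8, and its adjusted p otherwise ran up to 0.136. With no filter, or with only the knockout groups in the fit, Kdr (adjusted p = 0.0663 and 0.0687), Tie1 (0.0535 and 0.0535) and Etv2 (0.0929 and 0.0945) were not called. Nor was Etv2 after quantile normalization (limma adjusted p = 0.0621) or with libraries scaled to a common total (0.05004).

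In ES cells none of the 9 genes was called between knockout and wild type (limma), while 0.421% of all genes were called higher and 0.0778% lower. An unadjusted p under 0.05 (limma) was reached by 1 of the 9, Sox18, and by 2105 of all 15428 genes tested. Tek had 2.97 and 2.92 FPKM in knockout and 1.47 and 1.34 in wild type ES, and so had close replicates and no overlap. Its log2 difference was 0.71, with a 95% interval from -0.05 to 1.47 (adjusted p = 0.401). Sox18 had 1.63 and 4.19 FPKM against 0.701 and 0.567, a log2 difference of 1.18 (adjusted p = 0.357). Kdr had 2.13 and 0.551 FPKM against 0.507 and 0.314, and Pecam1 22.9 and 27.7 against 17.8 and 20.1. Both knockout ES libraries lay above both wild type ES libraries for 5 of the 9 genes, Kdr, Cdh5, Pecam1, Tek and Sox18, where 25.6% of all tested genes did so. Cdh5, Emcn, Flt1 and Tie1 stayed below 1 FPKM in all 4 ES libraries.

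The knockout difference was more negative in EB than in ES for 5 genes, tested as the difference of both differences (limma, called lower in 18.6% of all genes). It was -3.47 ± 0.69 (SE, adjusted p = 0.0119) for Sox18 and -2.31 ± 0.46 (adjusted p = 0.0114) for Tek, and both held whichever library was left out. The values were -2.54 for Kdr (adjusted p = 0.0280), -2.48 for Tie1 (0.0245) and -2.01 for Cdh5 (0.0457). Cdh5 kept its call only without EB knockout library 2, and its adjusted p without any 1 of the other libraries ran from 0.0652 to 0.138. Kdr lost its call without either wild type ES, either wild type EB, the first knockout ES or the first knockout EB library (adjusted p from 0.0596 to 0.0930), and Tie1 without any 1 ES library or EB wild type library 1 (0.0554 to 0.0808). With no filter Kdr (0.0921), Tie1 (0.0838) and Cdh5 (0.132) were not called, nor was Cdh5 after quantile normalization (0.0513) or with the mean filter of 5 FPKM (0.0615). Emcn was not called, at -2.52 (adjusted p = 0.0674), but was without EB knockout library 1 (0.0350) or 2 (0.00267).

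Knockout EB library 2 had higher FPKM than library 1 in all 9 genes, from 1.04-fold in Pecam1 to 3.29-fold in Tie1 and 16.8-fold in Emcn, where 52.2% of all genes tested were higher in library 2. In the same 2 libraries the summed FPKM was 24.3 and 63.3 for 8 genes of smooth muscle and pericytes, 42.3 and 113 for 6 genes of visceral endoderm, 33.6 and 33.1 for 11 blood genes and 1593 and 1297 for 6 pluripotency genes. Wild type EB library 1 exceeded library 2 in 8 of the 9 genes, Etv2 apart, by 1.28-fold to 1.83-fold, where 45.2% of all genes tested were higher in library 1. Their summed levels were 666 and 452 for smooth muscle and pericytes and 2259 and 535 for blood genes, but 206 and 274 for visceral endoderm, 8.88 and 11.1 for trophoblast and 138 and 196 for pluripotency genes. The part of these other cell types in the endothelial values was not tested.

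Because the libraries of 1 group differed in overall endothelial level, ratios between genes within a library were also taken, for 8 pairs chosen with the values known. Kdr over Cdh5 was 0.954 and 1.08 for wild type EB, with 1.07 and 0.953 for knockout, so these 2 genes kept near-equal FPKM in all 4 EB libraries. Kdr over Flt1, the pair of VEGF receptors, was 2.41 and 2.10 for wild type EB, with 0.639 and 0.857 for knockout. Tie1 over Tek was 1.69 and 1.90 in wild type against 0.667 and 1.22 in knockout. Within the lineage markers, Tie1 over Cdh5 was 0.884 and 0.895 against 0.493 and 0.560, and Sox18 over Cdh5 was 0.902 and 0.973 against 0.655 and 0.678. Emcn over Cdh5 was 0.398 and 0.464 against 0.0620 and 0.361, while Tek over Cdh5 overlapped between genotypes. Cdh5 over Pecam1 was 1.21 and 1.03 against 0.154 and 0.430. The ratios are given as a description with no test; an exact two-sided permutation test of 2 against 2 libraries allows no p below 0.333.

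**Figure D3:**
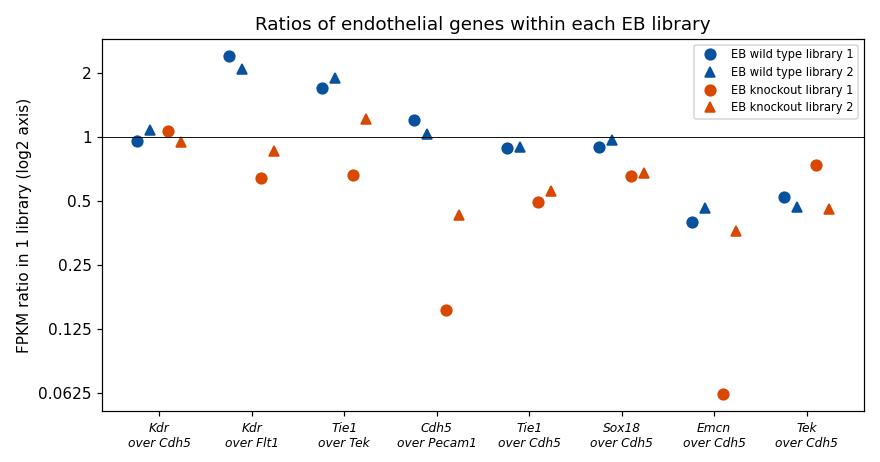
FPKM of 1 gene over that of another in the same library (y axis, log2 scale) for 8 pairs (x axis) in wild type EB (blue) and knockout EB (orange); circles are library 1 and triangles library 2. Kdr over Cdh5 lies near 1 in all 4 libraries, and Kdr over Flt1 lies above 2 in wild type and below 1 in knockout EB.

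Other genes of vessels and of neighbouring lineages are given here from 10 lists. Like Emcn, some of their tested genes passed the filter only through wild type EB, so that a lower level elsewhere was in part set by the filter. These were 4 of 11 VEGF and angiopoietin genes (Angpt1 and Angpt2 among them, 3 of the 4 called lower in knockout EB), 5 of 17 transcription factors (with Nr2f2, all 5 called lower), 5 of 25 surface proteins (with Esm1 and Clec14a, 4 called lower), 1 of 8 Notch and ephrin genes (called lower) and 3 of 9 blood genes (with Gfi1b, all 3 called lower). The other lists held none. Among 11 VEGF and angiopoietin ligands and co-receptors, 9 fell in knockout EB and 0 rose, with a median log2 difference of -1.08. Of all genes tested, 25.9% were called lower and 20.0% higher in knockout EB. Angpt1, the activating ligand of Tek, had 0.201 and 1.03 FPKM in knockout EB where wild type had 8.51 and 9.19, a log2 difference of -2.66 ± 0.25 (SE, limma adjusted p = 0.000576). Angpt2, the context-dependent ligand of Tek, was at -1.70, and Nrp1, a co-receptor of Kdr, at -2.96, from 77.2 and 71.9 FPKM to 4.71 and 15.4. All 3 had lower knockout values in both EB libraries.

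Of 17 other endothelial transcription factors in the table (of 18 listed), 13 fell and 1 rose (median -1.55). For this and the next 2 lists, the shares over all genes tested were 25.9% lower and 20.0% higher. Nr2f2, a factor of venous identity, was at -3.58 and Hey1, a Notch target of arteries, fell from 64.7 and 42.9 to 9.64 and 16.0 FPKM, while Klf2, the 1 that rose, was at 1.80, from 25.7 and 31.3 to 115 and 89.4 FPKM. Klf2 is also a factor of naive ES cells and stood at 143 to 291 FPKM in ES. Of 25 tested endothelial surface, junction and secreted proteins, 15 fell and 0 rose (median -1.38). Cldn5, a tight junction protein of vessels, went from 46.9 and 42.4 to 3.38 and 8.34 FPKM (log2 -2.83), Esm1, a secreted proteoglycan of sprouting vessels, was at -2.88 and Clec14a at -1.70. Of 8 Notch and ephrin genes 7 fell (median -1.30). Efnb2, the ephrin of arteries, was at -2.42, its venous receptor Ephb4 at -1.38 and the Notch ligand Jag1 at -1.45.

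Genes of mesoderm moved both ways, with 3 of 6 tested lower and 2 higher in knockout EB. Of all genes tested, 25.9% were called lower and 20.0% higher there, for this and the lists below. Pdgfra, a receptor of paraxial and cardiac mesoderm, went from 51.4 and 47.4 to 1.78 and 5.52 FPKM (log2 -3.56), T, a factor of the primitive streak, was at -1.21 and Hand1 at -1.84. The 2 that rose, named after their values were seen, were Eomes (1.58) and Mixl1 (1.11), both primitive streak factors. Markers of other lineages also moved. In blood, 7 of 9 tested genes fell, with Hbb-y at -6.12, Hba-x at -5.84 and Gfi1b at -2.07, and the summed FPKM of the list was 2259 and 535 FPKM in the wild type EB libraries and 33.6 and 33.1 in the knockout ones. All 6 tested genes of smooth muscle and pericytes fell, with Acta2 at -4.63, Tagln at -3.02 and Cnn1 at -2.49, and 4 of 6 visceral endoderm genes fell, with Afp at -3.49, Gata4 at -1.75 and Foxa2 at -1.38. The 2 visceral endoderm genes that were not called, named after their values were seen, had positive differences, Apoa1 of 0.94 (limma adjusted p = 0.124) and Apob of 0.80 (0.262). All 6 pluripotency genes rose, with Zfp42 at 4.07, Esrrb at 3.51 and Pou5f1 at 3.42. Trophoblast, another source of Flt1, had 2 of 7 genes tested, Cdx2 at -1.04 and Gcm1 at 0.68. The list had a summed FPKM of 4.44 and 7.96 in knockout EB, where wild type had 8.88 and 11.1. Much of this sum was Cdx2, at 2.24 and 5.45 FPKM in knockout EB and 8.26 and 8.50 in wild type EB. No gene of any list was at 0 in all 8 libraries, and the part of these cell types in the fall of the endothelial genes was not tested.

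**Figure D4:**
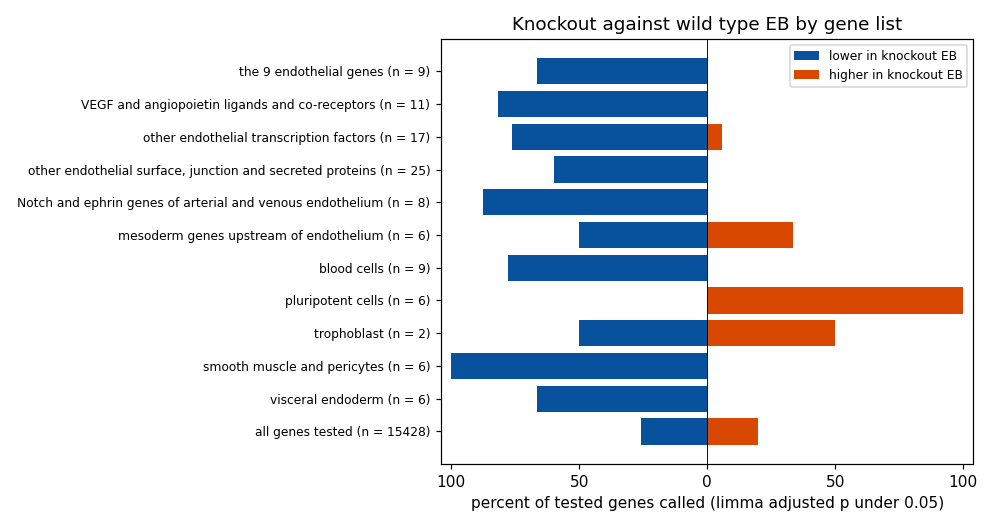
Share of tested genes called lower (blue, to the left) or higher (orange, to the right) in knockout against wild type EB (x axis, percent) for the 9 endothelial genes, 10 other lists and all genes tested (y axis). Among the 15428 genes 25.9% were called lower, and among the 9 endothelial genes 6 were.

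The genes whose pattern over the 8 libraries was most like that of Kdr, by Pearson's r of log2(FPKM + 1) among 12238 genes, were Atp2b1, Afap1l1 and Dcbld2 (r = 0.998, 0.997 and 0.994). For Cdh5 they were Lama4, Arhgap6 and Nfatc1 (r = 0.999, 0.999 and 0.998). Lama4, a laminin chain of vessel basement membrane, stood at 2.07 and 4.36 FPKM in knockout EB, below the 8.05 and 6.54 of wild type EB. For Pecam1 they were Cyb5d2, Rbbp7 and Cep95 (r = 0.982, 0.979 and 0.977). The points are 4 groups of 2 libraries, so these values describe a likeness of group levels and carry no test.

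H3K4me3 was set out gene by gene in 4 libraries without replicates. The deposited value is a signal per gene that tends to rise with the length of the gene's locus, so it was compared only between libraries of the same gene, as a ratio after adding 1 step, the smallest unit of a library. Kdr had a signal of 8.91 and 7.52 in wild type and knockout ES, then 24.3 and 11.3 in wild type and knockout EB. Its ratio was 2.72 for wild type EB over ES, where 10.3% of all genes were at 2 or more, and 2.15-fold lower in knockout than in wild type EB, where 4.57% of all genes were lower by 2-fold or more. Kdr was thus the 1 gene of the 9 past 2-fold from ES to EB in wild type, and none was past 2-fold from ES to EB in knockout, where 2.05% of all genes were higher and 4.00% lower by that much.

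Flt1 had H3K4me3 signals of 18.7 and 20.5 in wild type and knockout ES and 32.4 and 28.2 in wild type and knockout EB. Emcn had 1.44, 1.17, 2.08 and 0.880 in the same order, and its knockout EB signal was 2.32-fold below wild type EB. Pecam1 went the other way, with 24.9 in wild type ES, 13.3 in their EB and 23.7 in EB of knockout cells; 13.0% of all genes were lower by 2-fold or more in wild type EB, and none of the 9 was. Tek was at 9.39, 10.2, 6.11 and 5.10 in wild type ES, knockout ES, wild type EB and knockout EB, although its RNA was higher in EB of wild type cells. In knockout cells the rise of Tek RNA was not called (log2 0.56, limma adjusted p = 0.228). Cdh5 was at 4.78, 5.10, 6.96 and 4.96, Tie1 at 4.56, 3.98, 4.70 and 5.04, Etv2 at 4.27, 5.47, 5.74 and 9.20, and Sox18 at 6.59, 8.94, 9.28 and 8.56. For Cdh5, Tie1 and Sox18, whose RNA rose by over 4 on the log2 scale in wild type EB, the H3K4me3 ratio of EB over ES was 1.46, 1.03 and 1.41. It was 2.72 for Kdr, whose RNA also rose by over 4.

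Among the 9 genes H3K27me3 changed most in Sox18. The signal was 2.32 and 1.33 in wild type and knockout ES, then 19.3 and 5.02 in wild type and knockout EB. In wild type it was thus 8.23-fold higher in EB, a ratio reached by 232 of 20462 genes, while Sox18 RNA was also higher in EB. In knockout EB it was 3.83-fold below wild type EB and 3.71-fold above knockout ES, a step of 2-fold or more that 10.2% of all genes and 20.0% of loci under 10 kb took. Sox18 and Etv2 have the shortest loci of the 9, at 1.81 and 2.24 kb. Of 5802 loci under 10 kb, 25.0% were higher by 2-fold or more in wild type EB than ES, against 14.8% of all genes, and 18.4% were lower by 2-fold or more in knockout than wild type EB, against 9.12%. Etv2 had 1.44, 1.04, 2.84 and 1.25 in wild type ES, knockout ES, wild type EB and knockout EB, a ratio of 1.96 from ES to EB in wild type and 2.25-fold lower in knockout than wild type EB.

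The 7 longer genes changed less than 2-fold in every one of the 4 H3K27me3 comparisons; among all genes 11.3% were lower by 2-fold or more in wild type EB than ES, and 2.87% in knockout EB than ES. Cdh5 had 27.3, 26.3, 13.8 and 23.5 in wild type ES, knockout ES, wild type EB and knockout EB, so that wild type EB was lowest and 1.98-fold below wild type ES. Flt1 had 42.6, 62.5, 31.3 and 59.5 in the same order, with knockout EB 1.90-fold above wild type EB. Tie1 had 8.03, 11.6, 10.5 and 17.6, with knockout EB 1.68-fold above wild type EB. Tek stood at 13.4, 9.98, 9.28 and 12.3 and Emcn at 7.98, 6.24, 5.00 and 6.19, and Kdr was nearly level at 15.1, 18.9, 17.8 and 17.8. Pecam1, whose RNA was abundant in ES, had 3.20 and 3.39 in ES and 6.12 and 5.36 in EB.

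Set beside RNA, the 6 genes that fell in knockout EB did not share 1 chromatin pattern. H3K27me3 in knockout over wild type EB, where 7.88% of all genes were higher and 9.12% lower by 2-fold or more, was 1.71 in Cdh5, 1.68 in Tie1, 1.32 in Tek, 1.23 in Emcn, 1.00 in Kdr and 0.261 in Sox18. H3K4me3 in the same comparison, where 10.1% of all genes were higher and 4.57% lower by 2-fold or more, was 0.466 in Kdr, 0.430 in Emcn, 0.714 in Cdh5, 0.835 in Tek, 0.923 in Sox18 and 1.07 in Tie1. The median log2 ratio over all genes was 0.09 for H3K27me3 and -0.08 for H3K4me3. In ES cells the ratio of knockout over wild type stayed within 2-fold for all 9 genes and both marks, from 0.580 (H3K27me3, Sox18) to 1.47 (H3K27me3, Flt1). Of all genes 2.57% were higher and 4.63% lower by 2-fold or more there for H3K27me3, and 1.97% and 1.25% for H3K4me3. With 1 library per group these ratios have no replicate check.

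**Figure D5:**
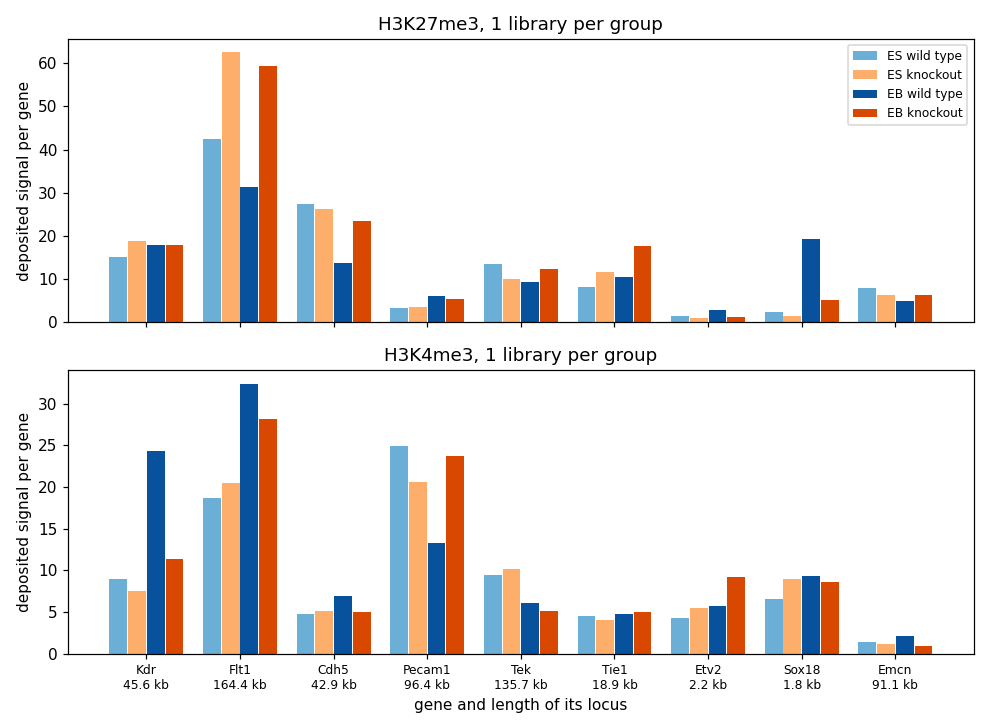
Deposited signal per gene (y axis, linear from 0) of H3K27me3 (top) and H3K4me3 (bottom) for the 9 genes with their locus lengths (x axis); each bar is 1 library. Sox18 stands at 19.3 for H3K27me3 in wild type EB against 1.33 to 5.02 in the other 3 libraries, and Kdr at 24.3 for H3K4me3 in wild type EB against 7.52 to 11.3.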

How the data were processed

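RNA-seq (8 libraries) and ChIP-seq (8 libraries) were used from 20 samples; the 4 input libraries were not analysed here. The RNA table holds FPKM computed by the authors, 1 column per library, matched to samples by title. Per the submitters' processing notes, mm10 was the build and the tools included Cufflinks 2.2.1, HTSeq, STAR 2.6.0a, DESeq2 and Bowtie2, in no stated role. The ChIP tables, matched by sample codes, hold a deposited signal, 1 value a gene, named RPKM on promoters by the authors; longer loci had higher values (rho across genes 0.432 to 0.686), so it was not read as per kilobase, and only ratios within a gene were taken, after adding 1 step (0.0267, or 0.04 in the H3K27me3 library of wild type EB). The depth behind either table is not known.

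Of 53560 rows, 120 second entries of a symbol (lower mean) were left out; 0 value columns were unmapped. Genes reaching 1 FPKM in 2 or more libraries (15428) were kept, and their log2(FPKM + 1) went into limma 3.58.1 (R 4.3.3) with a mean for every group and a trended eBayes (4 residual degrees of freedom, 7.05 after moderation). Tests were two-sided; p-values were adjusted (Benjamini-Hochberg) within each contrast across the whole set of genes, and 0.05 was the threshold. The script was tested on simulated data. The genes and lists were chosen with earlier results of these data known. Named from each list are the 3 genes with the smallest adjusted p in knockout against wild type EB, and, for Kdr, Cdh5 and Pecam1, the 3 genes with the highest Pearson r. Alternatives changed the pseudocount, filter, scaling, fit, replicate block and libraries used.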

Additional observations from a re-analysis of the deposited data

Results flagged for a closer look

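The knockout difference in EB and that in ES differed by limma's test of the difference for 5 of the 9 genes, where 18.6% of all genes were called lower. On the log2 scale it was -2.54 for Kdr, -2.01 for Cdh5, -2.31 for Tek, -2.48 for Tie1 and -3.47 for Sox18. All 5 were lower in knockout than in wild type EB, and none of them was called in ES. With 1 library left out in turn, Tek and Sox18 were called in 8 of 8 fits, Tie1 in 3, Kdr in 2 and Cdh5 in 1, and without the filter on low FPKM 2 of the 5 were called. Of all genes in the fit without that filter, 2131 of 32032 were called lower. In ES both knockout libraries lay above both wild type libraries for Kdr, Cdh5, Tek and Sox18, as for 25.6% of all genes tested.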

How the results depend on the processing

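Of 168 counts of called genes under other settings 155 stayed within 1.5 times. The number called lower in knockout EB (6) ran from 2 to 7 with 1 library left out, that called higher from ES to EB in knockout (5) from 2 to 6, and that called lower for the difference of both knockout effects (5) from 2 to 6. Without a filter, or with only the groups compared in the fit, 2 were called higher from ES to EB in knockout, and without a filter 2 were called for the difference; fewer samples or more genes tested enter these fits. No other count moved so far. Signs turned only for differences that were not called in the full fit. For Etv2 these were, in knockout against wild type EB, 0.20 (quantile normalization), 0.19 (without EB knockout library 1) and 0.02 (without EB wild type library 2), in ES -0.0078 (without ES knockout library 1), and for the difference of effects 0.18 (quantile normalization), 0.049 and 0.0027 (without knockout library 1 of EB and of ES). With 1 library left out these 3 values of Etv2 ran from -0.20 to 0.19, from -0.0078 to 0.29 and from -0.34 to 0.049. Flt1 in EB ran from -0.82 to 0.043 (turned without EB knockout library 1), Pecam1 in EB from -0.15 (without EB wild type library 2) to 0.33, with -0.11 at a common total, and Tie1 in ES from -0.084 to 0.058, turned without knockout (0.058) or wild type (0.0038) ES library 2; the cause was not tested. Library numbers were not given as pairs: the deviations of same-numbered libraries correlated at 0.07 to 0.31 over genes, and a replicate block left 6 genes called lower in knockout EB, moved the call of Cdh5 for the difference of effects (adjusted p = 0.0632) and no other call. All 216 ChIP ratios moved by less than 1.5-fold under centring, common totals and 5 steps added.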

Other observations

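The neighbours of Sox18, chosen after its value was seen, did not share the size of its H3K27me3 ratio in wild type EB over ES. Within 50 kb, Tcea2, 8.66 kb away, was at 1.24, Prpf6 at 1.23, Rgs19 at 2.09 and Oprl1 at 0.921, against 8.23 for Sox18. In knockout EB, Tcea2 had a signal of 4.70 against 2.96 in wild type EB, and Rgs19 1.63 against 1.24, while Sox18 was lower there.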
